A study of Mus musculus with 12 samples.

Results

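The genes described here encode the heat shock proteins and the chaperones that work with them, read in a transplanted mouse squamous cell carcinoma before and after its spread to the lung. They were found by gene name in the array files, by a pattern that takes the Hspa, Hspb, Hspd, Hspe, Hspca, Hspcb, Hsp90, Hsph, Dnaja, Dnajb, Dnajc, Cct and Bag names followed by their letters or digits. The pattern found 73 genes of the 27670 genes and unnamed features on the array, carried by 140 probes on 158 spots. They were 11 members of the HSP70 family, 3 of the HSP90 family, 7 small heat shock proteins, the 2 subunits of the mitochondrial chaperonin, 8 subunits of the cytosolic chaperonin CCT, 37 J-domain proteins and 5 BAG cochaperones. A further 12 genes whose current RefSeq symbol fits the pattern stand in the files under other names, among them Hsph1 and Hspa13, and are not counted as members.

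NR-S1, the carcinoma studied, was grown in the hind leg of male C3H/HeMsNrs mice. The 6 RNAs were compared on 12 two-colour arrays, each pair of RNAs in both dye orientations. Of the primary tumours, all taken 1 week after the tumour reached 7.5 mm, one group had received 8 Gy of gamma rays on the primary tumour, one had received 5 Gy of carbon ions, and one was unirradiated. Lung metastases were taken 2 weeks after that diameter from mice whose primary tumour had received 8 Gy of gamma rays (the gamma-group metastasis), 5 Gy of carbon ions (the carbon-group metastasis) or no irradiation. No label says that the lung itself was irradiated, and the gamma and carbon doses differ. All RNAs came from tissue cut out by laser microdissection and were amplified before labelling, and every source carries the words clone 1 and replicate 1. Each group is therefore 1 RNA, and no test across animals is possible. For RNAs that shared an array, ± gives the SD between a pair of dye-swapped arrays, an error of arrays and dyes only. For RNAs compared through the unirradiated primary, ± gives the SD between 2 differences, each between arrays of the same dye orientation. The unirradiated primary RNA was on 10 of the 12 arrays, so the 5 comparisons with it share that RNA and are given side by side.

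Chaperones bind unfolded or aggregating proteins. HSP70 proteins use ATP to hold and release them, J-domain proteins deliver clients and switch the ATPase on, and BAG proteins and HSP110 proteins release the nucleotide. HSP90 proteins act later, on kinases and receptors among others, while small heat shock proteins hold unfolded proteins without ATP. The chaperonins Hspd1 with Hspe1 in mitochondria and CCT in the cytosol enclose a protein in a chamber, CCT being known for actin and tubulin. Heat shock factor 1 raises the heat-inducible members when proteins unfold in the cytosol, and the unfolded protein response raises those of the endoplasmic reticulum (ER). Carcinomas commonly express many of these genes at high levels.

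Promoter motifs stand for both programmes, and the stretches that hold them are printed for the genes that the results below turn on. The motif of the heat shock factors was searched as GAA, TTC and GAA, each 2 bases apart, and the ER stress element as CCAAT and CCACG, 9 bases apart, on both strands, from 250 bases before to 50 bases after the start given by RefSeq on GRCm38.p6. Of the 73 members, 60 had an entry. Those without one, and so not searched, were Hspa8, Hspa9, Hsp90aa1, Hsp90ab1, Hspb2, Cct4, Dnajc2, Dnajc5, Dnajc5b, Dnajc11, Dnajc12, Dnajc18 and Bag4. The heat shock motif was in 3 of these 60 (5.00%) and in 0.662% of 27025 genes, and the ER stress element was in 3 (5.00%) and in 0.137%. The ER stress element was in Hspa5 at chr2:34771995-34772073 on the plus strand, in Dnajc3 at chr14:118937797-118937875 on the plus strand, and at 2 places, once on each strand, in Hsp90b1 at chr10:86705503-86705686 on the minus strand. These 3 genes are shown because they are the members that carry the element, and their ratios are given with the ER members below. Capitals mark the motif.
Hspa5: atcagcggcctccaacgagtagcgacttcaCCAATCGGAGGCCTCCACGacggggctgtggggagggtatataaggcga
Dnajc3: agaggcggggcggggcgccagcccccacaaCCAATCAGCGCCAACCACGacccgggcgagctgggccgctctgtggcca
Hsp90b1: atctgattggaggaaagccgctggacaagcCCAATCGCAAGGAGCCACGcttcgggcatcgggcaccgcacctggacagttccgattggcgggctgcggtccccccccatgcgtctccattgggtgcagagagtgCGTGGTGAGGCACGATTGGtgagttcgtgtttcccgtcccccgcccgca
The heat shock motif was in Dnajb6, Hspd1 and Hspe1. Hspd1 and Hspe1 start beside each other and run in opposite directions, and their windows overlap. Both hold the same 2 overlapping matches, 1 on each strand, in the stretch chr1:55088029-55088106, which is read from the minus strand for Hspd1 and from the plus strand for Hspe1. Capitals mark the matches.
Hspd1: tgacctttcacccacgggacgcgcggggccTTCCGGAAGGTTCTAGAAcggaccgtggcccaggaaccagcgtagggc
Hspe1: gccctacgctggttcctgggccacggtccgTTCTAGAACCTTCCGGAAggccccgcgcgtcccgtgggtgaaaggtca
Hspa1a, the member with the largest ratio of all, had no match to the full motif in its window but held the shorter inverted pair GAANNTTC, which 13 of the 60 members (21.7%) and 9.04% of all genes hold. Its stretch lies at chr17:34972223-34972290 on the minus strand, 104 to 97 bases before the start, and capitals mark the pair.
Hspa1a: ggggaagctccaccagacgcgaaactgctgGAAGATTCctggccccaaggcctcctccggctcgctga
A match of letters is a description of the window and not evidence that a factor binds there.

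The ratios are log2 values of the first-named RNA over the second, after normexp background correction with an offset of 50 and loess normalization, from the brightest probe of each gene. A gene counted as measured where each array of the comparison showed 1 or both of its RNAs well above background, and as called higher or lower where its ratio reached 2-fold in the same direction in both dye orientations. All 10 keratinocyte markers (Krt5, Krt14 and Trp63 among them) were above background in all 6 RNAs and 0 of them was called in any comparison. The dye orientations of Krt14 had opposite signs in each hybridised comparison, such as 1.37 and -0.55 in the gamma-irradiated primary. Those arrays give it no direction. Krt5 and Krt17 also differed between dyes, with SDs of 0.63 and 0.72 in that primary. In the 3 metastasis RNAs all 10 lung epithelial markers were also above background and called higher than in the unirradiated primary, by 2.06 to 8.25 on the log2 scale. In the irradiated primaries, 6 of the 10 were above background on no array, and 1, Cyp2f2, was called higher at 4.14 after gamma rays and 4.54 after carbon ions. All 12 skeletal muscle markers were above background in the unirradiated primary. Fewer cells of a type and less RNA per cell cannot be told apart in such RNAs. Each pair of arrays of a dye swap lay on 1 of 3 slides. Slide 1 held the unirradiated and gamma-group metastases, and slide 2 the carbon-group metastasis and the gamma-irradiated primary. Slide 3 held the carbon-irradiated primary against the unirradiated one and the arrays with both irradiated primaries. The carbon-group metastasis thus shared no slide with the other metastases, and slide and group cannot be told apart there or between other comparisons on different slides.

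Most chaperone genes differed little between these RNAs, as did most measured genes. The quartiles of the members' mean log2 ratios were -0.21 and 0.13 in the gamma-irradiated primary and -0.18 and 0.34 in the unirradiated metastasis. Those of all measured genes were -0.15 and 0.20, and -0.18 and 0.41. Of the 73 members, 66 were measured in all 6 hybridised comparisons, 4 in some of them (Dnajb3, Dnajb13, Dnajc6 and Hspa12a), and Dnajb7, Dnajb8 and Dnajc5g in none. In the gamma-irradiated against the unirradiated primary, 0 of 67 measured members was called higher, where 2.23% of all 15579 measured genes were, and 1 was called lower (Hspb7), beside 1.26% of all. In the carbon-irradiated against the unirradiated primary, 1 of 67 was called higher (Hspa2), beside 3.91% of all 15636 genes, and 0 lower, beside 1.07%. On the arrays that held both irradiated primaries, 1 of 66 was higher in the carbon-irradiated one (Hspb7), beside 0.884% of 15038 genes, and 0 was lower, beside 0.160%.

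In the metastases, few chaperones were called. In the unirradiated metastasis, 2 of 70 members were called higher than in the unirradiated primary (Hspa12b and Dnajc12), beside 10.4% of 17103 genes, and 1 lower (Hspb7), beside 1.69%. In the gamma-group metastasis, 2 of 69 were higher (Dnajc12 and Hspa12b), beside 8.82% of 17664 genes, and 1 lower (Hspb7), beside 1.10%. In the carbon-group metastasis, 3 of 67 were higher (Hspa1a, Dnajc12 and Hspa12b), beside 8.20% of 16283 genes, and 1 lower (Hspb7), beside 1.03%. The members' share of higher calls was thus 2.86%, 2.90% and 4.48% in these 3 comparisons, below that of all genes in each. Their median log2 ratio was 0.05, -0.05 and 0.00, and that of all genes 0.05, 0.06 and 0.06. The counts depend on the processing: with the scanner's own processed ratios 9, 6 and 8 members were called in the 3 comparisons, 6, 3 and 5 of them higher. Over the same 17103, 17664 and 16283 genes, those ratios called 2363, 2595 and 2096 higher and 874, 783 and 518 lower.

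**Figure D1:**
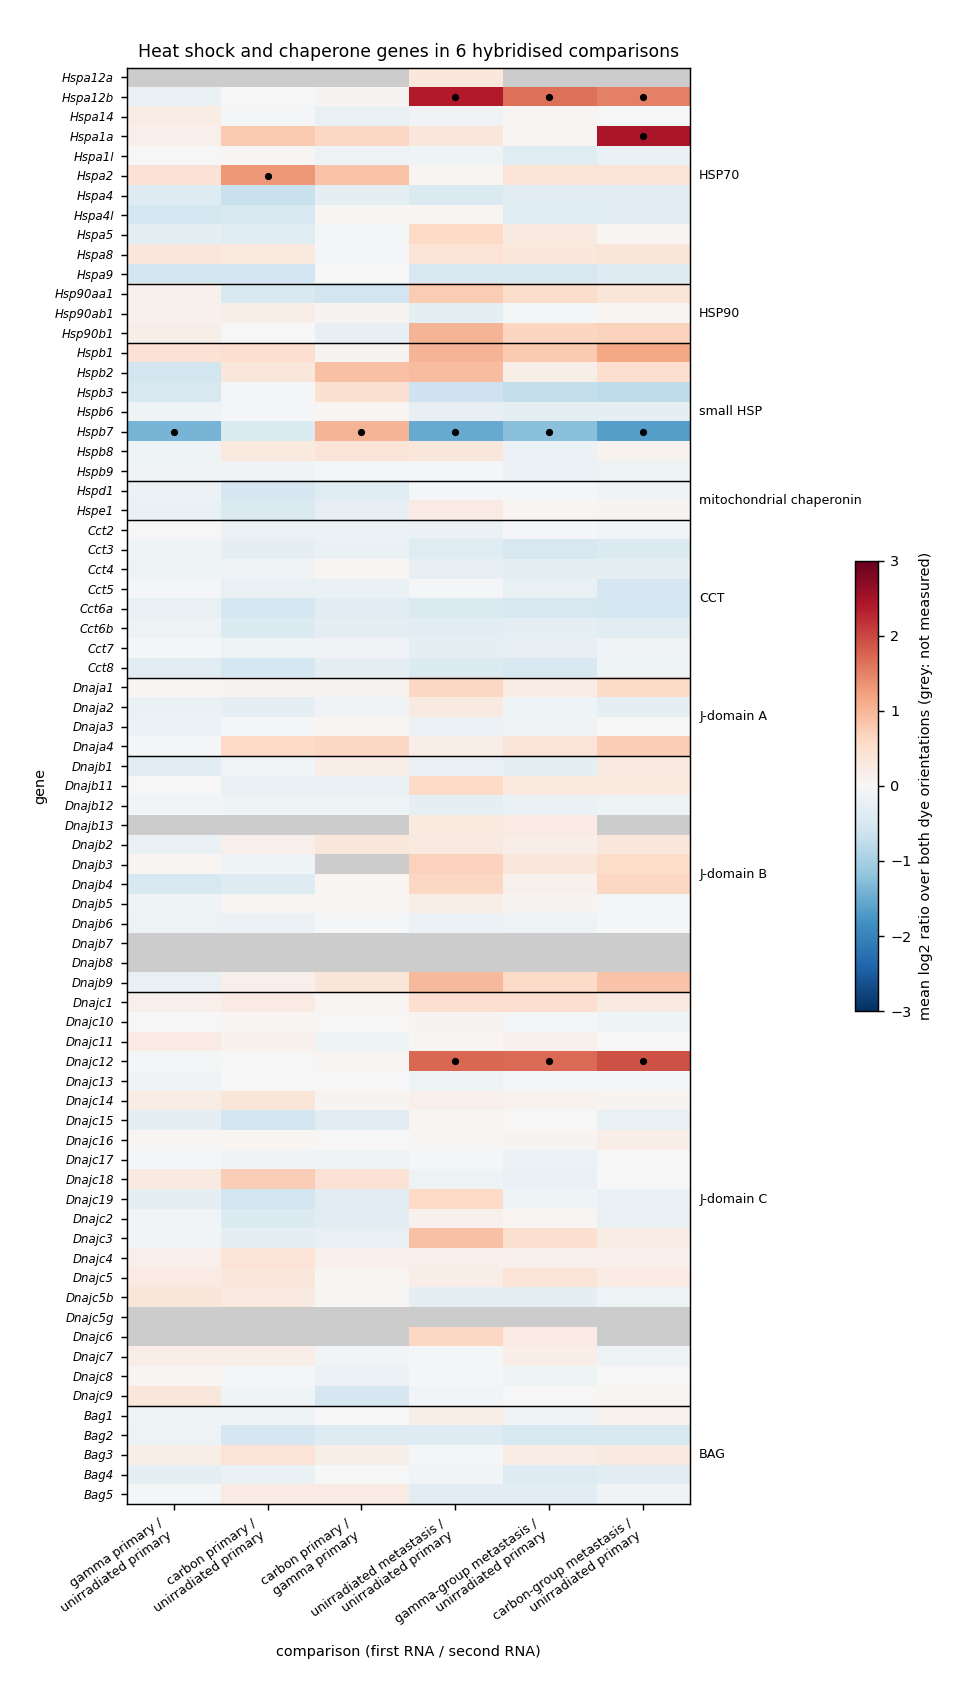
Mean log2 ratio over both dye orientations for each of the 73 members (vertical axis, grouped by family) in the 6 comparisons that shared an array (horizontal axis, first RNA over second). Red is higher and blue lower in the first RNA, grey was not measured, and black dots mark calls, which fall on Hspa1a, Hspa2, Hspa12b, Dnajc12 and Hspb7.

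Hspa1a, the stress-inducible cytosolic HSP70, gave the largest ratio of any member. In the carbon-group metastasis its log2 ratio to the unirradiated primary was 2.52 with the metastasis in Cy5 and 2.40 with it in Cy3, a mean of 2.46 ± 0.09 or 5.49-fold. In the other RNAs the mean was 0.16 ± 0.16 in the gamma-irradiated primary, 0.78 ± 0.07 in the carbon-irradiated primary, 0.34 ± 0.15 in the unirradiated metastasis and 0.05 ± 0.17 in the gamma-group metastasis. Only the carbon-group metastasis passed 2-fold. The 8 arrays of the other 4 comparisons lay between -0.07 and 0.83, and the 2 arrays of each comparison are repeats of 1 RNA. The 3 dimmer probes of the gene gave 2.32, 1.41 and 1.00 in that metastasis. Hspa1a has a near-identical neighbour, Hspa1b, which no spot of the rule names, and whether the probes read both was not tested.

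Hspa2, an HSP70 best known from the testis, was the only member called in the carbon-irradiated primary. Its log2 ratio there was 1.35 and 1.24 in the 2 orientations, a mean of 1.29 ± 0.08 or 2.45-fold, and its dimmer probe gave 1.10. The other RNAs had means of 0.44 in the gamma-irradiated primary, 0.05 in the unirradiated metastasis, 0.42 in the gamma-group metastasis and 0.39 in the carbon-group metastasis. On the arrays that held both irradiated primaries, Hspa2 was 0.86 ± 0.06 higher on the log2 scale in the carbon-irradiated one, which misses 2-fold. With median centring in place of loess the mean in the carbon-irradiated primary was 1.36 but 1 orientation fell under 2-fold.

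Hspa12b, a distant HSP70 relative known from endothelial cells, was higher in all 3 metastases. The log2 ratios were 2.50 and 2.25 in the unirradiated metastasis, 1.76 and 1.55 in the gamma-group metastasis, and 1.65 and 1.34 in the carbon-group metastasis. The means were 2.38 ± 0.18 (5.19-fold) and 1.66 ± 0.15 (3.15-fold) in the unirradiated and gamma-group metastases, and the carbon-group metastasis was 2.82-fold higher with an SD of 0.22 on the log2 scale. Both irradiated primaries stayed near the unirradiated one, at -0.22 ± 0.03 after gamma rays and 0.00 ± 0.17 after carbon ions. The call in the carbon-group metastasis was lost with median centring, where the mean was 1.44. Endothelial markers were also higher in the metastases: 9 of 10 were called higher in the unirradiated metastasis, with a median of 1.87 and a range of 0.01 to 4.23. In each of the other metastases 5 of 10 were called higher, with medians of 1.19 and 1.29. The gamma- and carbon-irradiated primaries had medians of -0.35 and -0.26, and Cldn5 was called lower there, at -1.47 and -1.34. All 10 markers were above background in all 6 RNAs. Their part in the Hspa12b ratio was not tested.

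The other HSP70 members were not called. Hspa8, the constitutive cytosolic HSP70, had ratios between 0.30 and 0.40 in all 5 RNAs against the unirradiated primary, and both orientations were above 0 in each. Hspa9, the HSP70 of mitochondria, lay on the other side, at -0.56 and -0.57 in the gamma- and carbon-irradiated primaries and at -0.45, -0.48 and -0.38 in the unirradiated, gamma-group and carbon-group metastases. Hspa4, a nucleotide exchange factor of the HSP110 kind, was also negative throughout, lowest at -0.66 in the carbon-irradiated primary. Hspa14 stayed between -0.11 and 0.22, and Hspa1l between -0.36 and 0.04. Hsph1, an HSP110 gene listed in the files as Hsp110 and so not a member, had -0.31 and -0.48 in the gamma- and carbon-irradiated primaries and 0.74, 0.50 and 0.35 in the unirradiated, gamma-group and carbon-group metastases.

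The 3 HSP90 members were not called in any of the 11 comparisons. Hsp90aa1, the inducible cytosolic form, had 0.14 ± 0.20 in the gamma-irradiated and -0.45 ± 0.23 in the carbon-irradiated primary, and 0.76 ± 0.16, 0.52 ± 0.06 and 0.36 ± 0.29 in the unirradiated, gamma-group and carbon-group metastases. Hsp90b1, the ER form known as GRP94, had 1.02 ± 0.11 in the unirradiated metastasis, where 1 orientation gave 1.10 and the other 0.95, so it stood at the edge of a call. Hsp90b1 had 0.64 ± 0.05 and 0.68 ± 0.17 in the gamma-group and carbon-group metastases, against 0.18 ± 0.07 and 0.00 ± 0.02 in the gamma- and carbon-irradiated primaries. It was called in the unirradiated metastasis with the scanner's processed ratios, at 1.06, and its dimmer probe gave 0.48. Hsp90ab1, the constitutive cytosolic form, had means between -0.30 and 0.20 in the 5 comparisons with the unirradiated primary, but its dye orientations had opposite signs in each, with SDs of 0.74 to 0.85, so these arrays give it no direction.

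Among the small heat shock proteins, Hspb7 was called lower in 4 of the 5 RNAs against the unirradiated primary, and Hspb1 had positive ratios in all 5. Hspb7, known from heart and skeletal muscle, had log2 ratios of -1.51 and -1.28 in the gamma-irradiated primary, a mean of -1.40 ± 0.17. The means were -1.52 ± 0.32 in the unirradiated metastasis, -1.26 ± 0.24 in the gamma-group metastasis and -1.66 ± 0.27 in the carbon-group metastasis. The carbon-irradiated primary had -0.61 and -0.20 and was not called. Where both irradiated primaries shared arrays, Hspb7 was 1.02 and 1.00 higher in the carbon-irradiated one at the threshold of 2-fold, and this call was lost with median centring, with the mean of all probes (0.66) and through the unirradiated primary (0.99). The metastasis signal was well above background on 1 of 2 arrays in the unirradiated and in the carbon-group metastasis. A dimmer probe gave -0.53 in the gamma-irradiated primary, and with the mean of both probes the calls were lost there (-0.96), in the unirradiated metastasis (-1.07) and in the gamma-group metastasis (-0.90).

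Skeletal muscle markers moved with Hspb7. Of 12 such markers, 10 were called lower in the gamma-irradiated primary (median -2.25, range -2.92 to -0.53), 3 in the carbon-irradiated primary (median -0.85, range -2.34 to 0.15), 10 in the unirradiated metastasis (median -3.45), 10 in the gamma-group metastasis (median -3.54) and 11 in the carbon-group metastasis (median -3.45). On the arrays with both irradiated primaries, 8 of 11 measured markers were called higher in the carbon-irradiated one (median 1.30). Pygm was well above background in none of the other 5 RNAs on any array. The part of muscle RNA in the Hspb7 ratio was not tested. Hspb3, another small heat shock protein known from muscle, was detected at a dim signal in the unirradiated primary. It was well above background on no array in any of the metastases or in the gamma-irradiated primary. It was at least 1.55-fold lower in the unirradiated metastasis, at least 1.65-fold lower in the gamma-group metastasis, at least 1.55-fold lower in the carbon-group metastasis and at least 1.34-fold lower in the gamma-irradiated primary. In each bound the dim side is, per array, the higher of Hspb3's own signal and the lowest signal well above background, so the bound equals the measured fold where its own signal was the higher.

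Hspb1, the heat-inducible HSP27, had 0.59 and 0.26 in the gamma-irradiated primary, 0.61 and 0.39 in the carbon-irradiated primary, 1.14 and 0.89 in the unirradiated metastasis, 0.89 and 0.67 in the gamma-group metastasis, and 1.38 and 0.96 in the carbon-group metastasis. All 10 arrays were above 0, and the means for the metastases were 1.02 ± 0.17, 0.78 ± 0.16 and 1.17 ± 0.30, with 1 orientation under 2-fold in the unirradiated and carbon-group metastases and both under it in the gamma-group metastasis. Like Hspb7 and Hspb3, the small heat shock proteins Hspb2, Hspb6 and Cryab are known from muscle. Hspb2, whose gene lies beside Cryab, had 0.92 ± 0.16 in the unirradiated metastasis and -0.55 ± 0.20 in the gamma-irradiated primary. It was 0.88 ± 0.20 higher in the carbon-irradiated than in the gamma-irradiated primary. Cryab itself, the best known small heat shock protein outside the naming rule, was called higher at 1.89 in the unirradiated and 1.62 in the carbon-group metastasis and had 1.01 in the gamma-group metastasis, against -0.13 and 0.96 in the gamma- and carbon-irradiated primaries. Hspb8, the partner of Bag3, lay between -0.17 and 0.34, and Hspb6 and Hspb9 between -0.30 and -0.04.

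**Figure D2:**
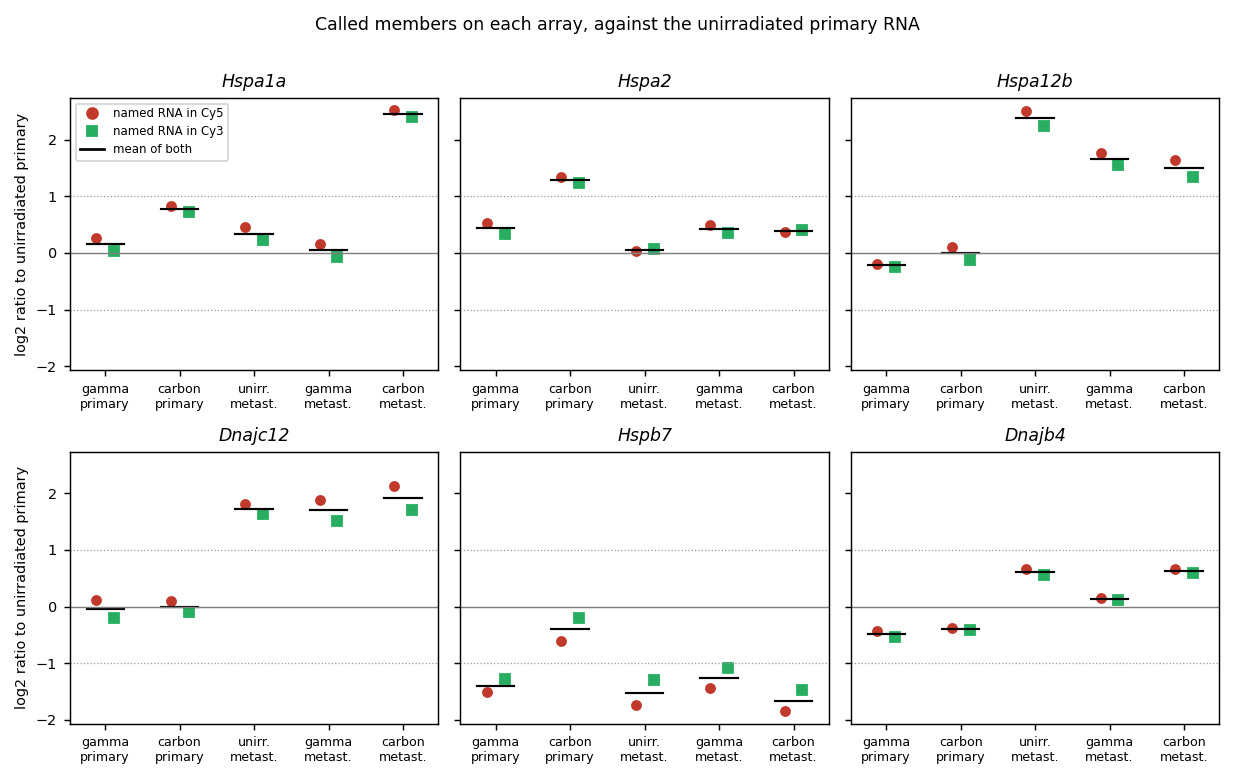
Log2 ratio to the unirradiated primary (vertical axis) on each array for the 6 members called in any of the 11 comparisons, in the 5 other RNAs (horizontal axis). Circles have the named RNA in Cy5, squares in Cy3, bars are their mean and dotted lines mark 2-fold. Hspa1a stands at 2.46 in the carbon-group metastasis, and Dnajc12 and Hspa12b are above 2-fold on all 6 metastasis arrays.

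The mitochondrial chaperonin was lower in ratio in the carbon-irradiated primary than in any other RNA, without a call. Hspd1 had -0.51 ± 0.25 there and Hspe1 -0.44 ± 0.08, and all 4 of these array values were below 0. In the gamma-irradiated primary they had -0.18 and -0.21, and in the metastases they stayed between -0.12 and 0.25. These are the 2 genes printed above with the shared heat shock motif. Some other members that work in mitochondria lay the same way in the carbon-irradiated primary: Dnajc19 and Dnajc15, which act in protein import, had -0.58 and -0.56, and Hspa9 had -0.57. Dnaja3 had -0.04 there, with orientations of 0.11 and -0.19. Dnajc11, also of mitochondria but outside the group that follows, had 0.12 there and 0.25 in the gamma-irradiated primary, above 0 in both orientations of each. Over 6 mitochondrial members, grouped after their values were seen (Hspd1, Hspe1, Hspa9, Dnaja3, Dnajc15 and Dnajc19), the median was -0.53 in the carbon-irradiated primary. It was -0.24 in the gamma-irradiated primary, where all 6 means were below 0, against medians of all genes of 0.02 in both. Lonp1, the mitochondrial protease, had -1.03 and -0.81 in the gamma- and carbon-irradiated primaries and was called lower at -1.37 in the unirradiated metastasis.

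The 8 CCT members leaned to the unirradiated primary in every comparison with it, by small amounts. Their median log2 ratio was -0.14 in the gamma-irradiated primary, -0.25 in the carbon-irradiated primary, -0.30 in the unirradiated metastasis, -0.27 in the gamma-group metastasis and -0.30 in the carbon-group metastasis, with all means between -0.53 and 0.00. The medians of all genes were 0.02, 0.02, 0.05, 0.06 and 0.06. In each of these comparisons 5 or 6 of the 8 members were below 0 in both orientations and 0 were above 0 in both. Cct8 had the lowest value in the primaries, -0.31 after gamma rays and -0.53 after carbon ions, and Cct6a in the carbon-group metastasis, -0.53. Cct2 and Cct5 differed most between dyes and had SDs larger than their means in several comparisons. Tcp1, the eighth subunit type and not a member by name, had -0.19, -0.32, -0.45, -0.40 and -0.35 in the same 5 comparisons. The 5 comparisons share the unirradiated primary RNA.

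The J-domain proteins held 1 member called in all 3 metastases, Dnajc12, a cochaperone known for its work with the aromatic amino acid hydroxylases. Its log2 ratios were 1.82 and 1.63 in the unirradiated metastasis, 1.89 and 1.52 in the gamma-group metastasis, and 2.13 and 1.71 in the carbon-group metastasis. The means were 1.72 ± 0.14 (3.30-fold), 1.70 ± 0.26 (3.26-fold) and 1.92 ± 0.29 (3.78-fold), and each was called under every alternative run for it. In the gamma- and carbon-irradiated primaries the means were -0.04 ± 0.23 and 0.00 ± 0.15. Dnajc12 is described here because of its calls, so the gap between metastasis and primary arrays is no further support. The 2 arrays of each RNA are repeats of 1 RNA. Lung epithelial markers were called higher in the same 3 RNAs, 10 of 10 in each with medians of 4.31, 4.84 and 4.85, and their part in the Dnajc12 ratio was not tested.

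Of the J-domain proteins of the ER, several had positive ratios to the unirradiated primary in metastases, without a call. Dnajb9, which serves ER-associated degradation, had 0.97 ± 0.02, 0.58 ± 0.02 and 0.86 ± 0.04 in the unirradiated, gamma-group and carbon-group metastases, against -0.23 ± 0.04 and 0.15 ± 0.09 in the gamma- and carbon-irradiated primaries. Dnajc3, the inhibitor of the kinase PERK known as p58IPK, had 0.87 ± 0.16, 0.48 ± 0.12 and 0.23 ± 0.06 in the same 3 metastases, and its 3 dimmer probes gave 0.87 to 0.96 in the unirradiated one. Dnajb11, a cochaperone of Hspa5, had 0.60, 0.30 and 0.30, and Dnajc1 had 0.51, 0.50 and 0.26. Dnajc10, which reduces disulphide bonds in the ER, had 0.08 ± 0.34, -0.05 ± 0.36 and -0.14 ± 0.36, with orientations of opposite sign in all 3. Hspa5, the ER HSP70 known as BiP, had 0.59 ± 0.22, 0.26 ± 0.15 and 0.05 ± 0.02, against -0.30 ± 0.09 and -0.36 ± 0.18 in the gamma- and carbon-irradiated primaries. Dnajb12, of the ER membrane, had -0.26 ± 0.06 in the unirradiated metastasis. Dnajc14, Dnajc16 and Dnajc18, also of the ER membrane, had 0.16, 0.04 and -0.16 there. These ER membrane members are not in the group that follows. This group of 7 members that reside in the ER was formed after their values were seen (Hspa5, Hsp90b1, Dnajb9, Dnajb11, Dnajc1, Dnajc3 and Dnajc10). Its median was 0.60 in the unirradiated, 0.48 in the gamma-group and 0.26 in the carbon-group metastasis, and 0.02 and 0.00 in the gamma- and carbon-irradiated primaries. With median centring in place of loess these medians were 0.40, 0.09 and -0.05 in the 3 metastases, so the direction turned in the carbon-group metastasis. The 3 genes whose promoters carry the ER stress element, printed above, were all in this group.

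**Figure D3:**
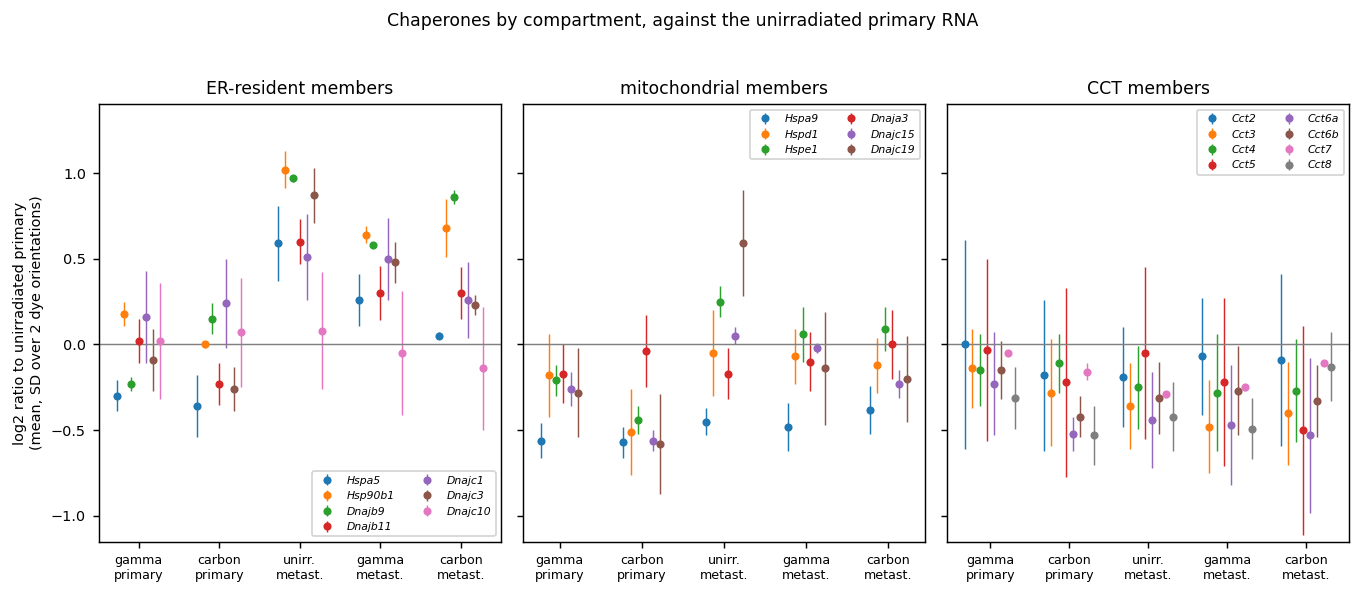
Log2 ratio to the unirradiated primary (vertical axis; points are means and bars the SD over 2 dye orientations) in the 5 other RNAs (horizontal axis) for 7 ER-resident, 6 mitochondrial and 8 CCT members. By their means, the ER members shown stand highest in the unirradiated metastasis, and the mitochondrial members shown, except Dnaja3, lowest in the carbon-irradiated primary. Some gaps lie inside the SDs. Hspa9 was nearly as low in the gamma-irradiated primary, at -0.56. Dnajc10 had 0.08 in the unirradiated metastasis and 0.07 in the carbon-irradiated primary. CCT means lie between -0.53 and 0.00 throughout.

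Over all measured J-domain genes, Dnajc12 and the ER members included, the medians lay between -0.03 and 0.16 in the 5 comparisons with the unirradiated primary. Dnajb4, an HSP40 of the cytosol, had -0.48 and -0.39 in the gamma- and carbon-irradiated primaries and 0.61, 0.13 and 0.63 in the unirradiated, gamma-group and carbon-group metastases. Dnaja1, another, had 0.63, 0.22 and 0.57 in the same metastases. Dnaja4 had 0.59 in the carbon-irradiated primary and 0.74 in the carbon-group metastasis, against -0.03 and 0.38 in the gamma-irradiated primary and the gamma-group metastasis. Dnajc18 had 0.74 in the carbon-irradiated primary, the third highest value there. Dnajc9, a histone cochaperone, was at -0.50 in the carbon-irradiated over the gamma-irradiated primary, and Dnajc5b reached 0.37 in the gamma-irradiated primary. Dnajb13, a gene of sperm and motile cilia, was at least 1.23-fold higher in the unirradiated and at least 1.13-fold higher in the gamma-group metastasis, against an unirradiated primary where it was not well above background. Its orientations in the unirradiated metastasis were 0.05 and 0.54.

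The 5 BAG members were not called. Bag3, heat-inducible and tied to selective autophagy, had 0.20 and 0.42 in the gamma- and carbon-irradiated primaries and -0.03, 0.23 and 0.27 in the unirradiated, gamma-group and carbon-group metastases. Bag2 was at -0.15 and -0.50 in these primaries and between -0.49 and -0.38 in the metastases. Bag1, Bag4 and Bag5 lay between -0.39 and 0.24.

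Comparisons among the irradiated groups were made through the unirradiated primary where the RNAs had not shared an array. A dye effect shared by arrays of the same orientation cancels in such differences, so their ± is smaller. Its median over the members was 0.0371 to 0.0651 in these comparisons, against 0.115 to 0.158 in the hybridised ones. This is not a tighter measure of error. In the gamma-group over the unirradiated metastasis, 0 of 69 members was called higher or lower, beside 1.69% and 1.45% of all genes. In the carbon-group over the unirradiated metastasis, 1 of 67 was higher (Hspa1a, 2.12 ± 0.07), beside 1.69% of all, and 0 lower, beside 2.40%. In the carbon-group over the gamma-group metastasis, 1 of 67 was higher (Hspa1a, 2.41 ± 0.08 or 5.32-fold), beside 0.247% of all, and 0 lower, beside 1.01%. Hspa1a was thus the only member called between the carbon-group metastasis and either of the others.

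No other heat-inducible member was called with Hspa1a in that metastasis in these 2 comparisons. Against the gamma-group metastasis, the carbon-group metastasis had 0.52 ± 0.03 for Dnajb1, 0.49 ± 0.03 for Dnajb4, 0.39 ± 0.15 for Hspb1, 0.35 for Dnaja1, 0.05 for Bag3, 0.04 for Hspa8 and -0.15 ± 0.23 for Hsp90aa1. Against the unirradiated metastasis the values were 0.47 for Dnajb1, 0.30 for Bag3, 0.15 for Hspb1, 0.01 for Dnajb4, -0.06 for Dnaja1 and -0.40 for Hsp90aa1. Hspd1 and Hspe1 lay between -0.16 and 0.02 in both. Over 10 members grouped as heat-inducible after their values were seen, the median was 0.20 against the gamma-group and -0.01 against the unirradiated metastasis. The constitutive Hspa8 is among these 10. Outside this group, Dnaja4 had 0.36 and 0.55 and Hspb8 had 0.28 and -0.23 against the gamma-group and the unirradiated metastasis. Hsf1 itself had 0.09 and 0.23, and Hsph1 -0.15 and -0.39.

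**Figure D4:**
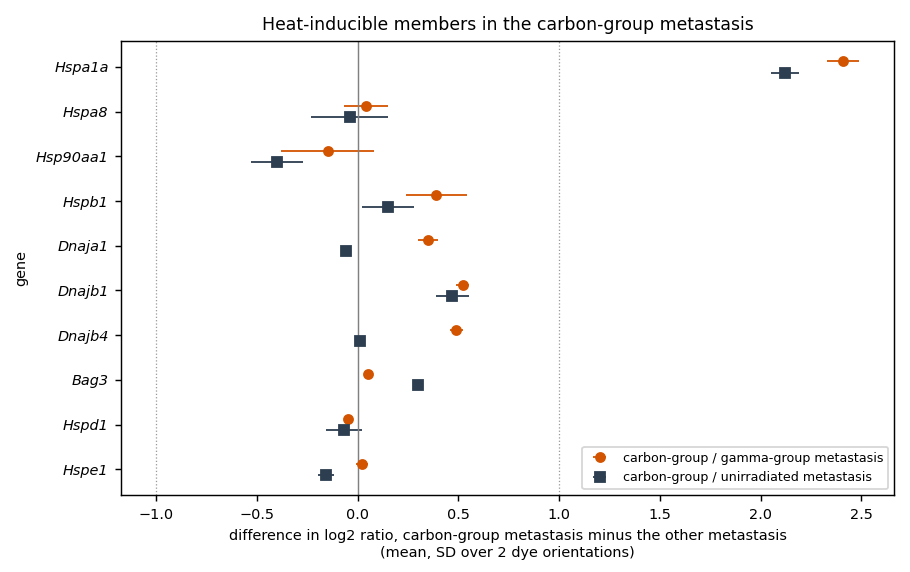
Difference in log2 ratio (horizontal axis) between the carbon-group metastasis and the gamma-group metastasis (circles) or the unirradiated metastasis (squares). Points are means and bars the SD over 2 dye orientations. The vertical axis holds 10 members grouped as heat-inducible, the constitutive Hspa8 among them. Hspa1a stands at 2.41 and 2.12, and the other 9 lie between -0.40 and 0.52.

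The ER group above was formed after its values were seen. All 7 of its members were lower in ratio in both irradiated groups' metastases than in the unirradiated metastasis, without a call. The medians were -0.32 in the gamma-group and -0.30 in the carbon-group metastasis, with ranges of -0.38 to -0.01 and -0.64 to -0.10. The medians of all genes were -0.04 and -0.03. Of the ER membrane members outside the group, Dnajb12 was at 0.07 and 0.10 and Dnajc14 at -0.05 and -0.08. Dnajc16 was at 0.04 and 0.16, and Dnajc18 at -0.07 and 0.16. These 2 comparisons share the unirradiated metastasis RNA. Dnajc3 was at -0.38 and -0.64, Hspa5 at -0.32 and -0.54, Hsp90b1 at -0.38 and -0.34, and Dnajb9 at -0.38 and -0.10. Outside the ER, Hspa12b (-0.88) and Dnajc19 (-0.79) had the lowest ratios of all members in the carbon-group over the unirradiated metastasis.

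Each metastasis was also set against the primary tumour of its own treatment. In the gamma-group metastasis over the gamma-irradiated primary, 2 of 67 members were higher (Hspa12b at 1.88 and Dnajc12 at 1.74), beside 6.61% of all genes, and 0 lower, beside 1.01%. In the carbon-group metastasis over the carbon-irradiated primary, 4 of 67 were higher, beside 5.73% of all, and 1 lower, beside 2.03%. The higher ones were Dnajc12 (1.92), Hspa1a (1.68), Hspa12b (1.53 and 1.47 in the 2 orientations) and Dnajb4 (1.02), and the lower one was Hspb7 (-1.26). Dnajb4 lost its call with median centring (0.74) and with the mean of its probes (0.40), and Hspb7 lost its call with the mean of its probes (-0.82). Hspa2 was -0.90 ± 0.11 in the carbon-group metastasis over the carbon-irradiated primary, and Hsp90aa1 was 0.81 ± 0.06.

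The wider pathway was followed with 2 lists of genes outside the members. Of 29 heat shock factors and cochaperones, all measured, 1 was called higher and 1 lower in the unirradiated metastasis (Cryab and Lonp1), 1 higher in the carbon-group metastasis (Cryab), and 0 in the gamma-group metastasis and in both irradiated primaries. Fkbp5, an HSP90 cochaperone induced by glucocorticoids, was called lower in the carbon-group than in the unirradiated metastasis, at -1.57, and Pfdn4, a prefoldin subunit, was called lower in the gamma-group than in the unirradiated metastasis, at -1.12. Of the 12 genes whose current symbol fits the pattern but whose name in the files does not, 0 were called in any comparison. Cryab is not one of these 12, since its symbol is outside the pattern, and is counted in the list of 29. The medians of the list of 29 in the 5 comparisons with the unirradiated primary lay between -0.15 and 0.06.

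Of 26 genes of the unfolded protein response and ER folding, 25 were measured in the unirradiated metastasis, with a median of 0.64 against 0.05 for all genes. Sdf2l1, a partner of Hspa5 complexes, and Ero1b, an ER oxidase, were called higher there at 1.39 and 1.23, while the oxidase Ero1a was called lower at -3.74, Trib3 at -1.35 and Ddit3 at -1.16. Ddit3 and Trib3 belong to the stress arm run by Atf4, which had -0.93. The median was 0.34 in the gamma-group metastasis, where Derl3 (1.60) and Ero1b (1.13) were higher and Ero1a (-2.37), Trib3 (-1.37) and Ddit3 (-1.29) lower, and 0.39 in the carbon-group metastasis, where Derl3 (1.39) and Atf3 (1.26) were higher and Ero1a (-1.67) lower. With median centring these 3 medians were 0.51, 0.00 and 0.05. In the gamma-irradiated primary, 0 were higher and 4 lower (Ero1a, Trib3, Ppp1r15a and Ddit3), and in the carbon-irradiated primary Ero1a alone was called, at -1.96. In the unirradiated metastasis, the ER folding genes Pdia3, Calr, Hyou1, Manf and Creld2, picked after their values were seen, had 1.04, 0.83, 0.89, 0.93 and 0.99 without a call.

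Ero1a is also a hypoxia gene and is 1 of the 12 genes of the hypoxia list, so its own calls are among the counts that follow. Of this list, 11 of 12 genes were called lower in the unirradiated metastasis (median -2.81), 8 in the gamma-group metastasis (median -1.37), 3 in the carbon-group metastasis (median -0.54), 2 in the gamma-irradiated primary (median -0.57) and 1 in the carbon-irradiated primary (median -0.47), where the gene called was Ero1a itself and the range was -1.96 to 0.61. Macrophage markers were called higher in 8, 5 and 4 of 9 cases in the unirradiated, gamma-group and carbon-group metastases, with medians of 1.81, 1.02 and 0.91, and in 0 of 9 in both irradiated primaries. Markers of T and natural killer cells were called higher in 8, 9 and 7 of 10 cases in these metastases and in 3 of 9 and 6 of 10 in the gamma- and carbon-irradiated primaries. Fibroblast markers were called higher in 5, 3 and 2 of 10 cases and lower in 0, 1 and 1 in the unirradiated, gamma-group and carbon-group metastases, the lower one being Fap at -1.33 and -1.24. Motile cilia markers were called higher in 1 of 6, 5 of 11 and 5 of 11 measured cases in these metastases. The part of these cell types in the ER chaperone ratios was not tested.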

How the data were processed

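Per the file headers, the 12 arrays were read with Agilent Feature Extraction 9.1.3.1. The deposited intensity values are the mean brightness of each spot and the median of its local background in each channel, not normalized. The deposited log10 ratio per spot, Cy5 over Cy3, comes from signals that Feature Extraction had background-corrected and dye-normalized, per the file headers; the authors' table of log10 values equalled it within 0.005, so its scale and direction are known, and each of its columns had a median of 0. Every array held 45018 spots, 43379 of them not controls, with 16 to 58 left out as outliers, 0 saturated, and 53.8% to 68.8% per channel well above background. The number of arrays limits the precision.

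From the mean signals, ratios were computed with limma 3.58.1 (R 4.3.3; normexp, offset 50, then loess with control spots at weight 0), and summarised with Python 3.11.15, numpy 2.4.6 and pandas 2.3.3; figures used matplotlib 3.10.9. The offset pulls dim ratios toward 0. Ratios were turned by the dyes in the labels, spots of a probe averaged, and the brightest of a gene's probes used, as 43 members had several. Of the 140 member probes, 111 were named through the RefSeq gene table of GRCm38.p6 by accession and 29 by symbol, which updated Hspa9a and Dnajb10 to Hspa9 and Dnajb2. Comparisons not hybridised together were taken as differences between arrays of the same dye orientation. No test was run, as each group is 1 RNA.

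The members and gene lists were chosen with earlier results of these data known. Named with values are the members called in a comparison, the 3 highest and 3 lowest in each hybridised comparison, and a fixed set of well known members; other members named in the text were chosen after their values were seen. Levels of different probes were not compared. The alternatives were the scanner's processed ratios, the authors' table, an offset of 0, median centring, the mean of a gene's probes, 2 other filters on dim probes, a fold of 1.5 and each dye orientation alone.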

Additional observations from a re-analysis of the deposited data

How the results depend on the processing

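Dnajc12 in all 3 metastases and Hspa1a in the carbon-group metastasis kept their calls under every alternative run for them. The log2 ratio of Hspa1a to the unirradiated primary ranged from 1.80 to 2.52 over them. The counts of called members and their medians depended on the processing. The cause was not tested.

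With the scanner's processed ratios, and with the authors' table, which holds the same values, 2 members were called in the gamma-irradiated primary, 9, 6 and 8 in the unirradiated, gamma-group and carbon-group metastases, and 2 between the irradiated primaries. They called 1 member in the gamma-group over the unirradiated metastasis, 2 in the carbon-group over the gamma-group metastasis, and 4 and 8 in the gamma-group and carbon-group metastases over their own primaries. Of all 16805, 16195, 15497 and 15248 measured genes there, in the same order, 664, 122, 1130 and 1112 were called higher. Those called lower were 452, 248, 611 and 698. Medians of the members were -0.18 in the carbon-irradiated primary and -0.09 and -0.08 in the unirradiated and carbon-group metastases. With the scanner's ratios the calls over all genes rose too, from 348 to 604 higher and from 196 to 419 lower in the gamma-irradiated primary. Between the irradiated primaries they rose from 133 to 235 higher and from 24 to 93 lower. With an offset of 0, the median was -0.12 in the carbon-irradiated primary and 6 members were called in the unirradiated metastasis. Of all 17103 genes there, 2256 were then called higher and 446 lower. With median centring, 0 members were called in the carbon-irradiated primary, beside 414 higher and 59 lower of 15636 genes. Between the irradiated primaries 0 members were called, beside 63 higher and 10 lower of 15038 genes. The medians were then -0.12 in the carbon-irradiated primary, -0.04, -0.34 and -0.23 in the unirradiated, gamma-group and carbon-group metastases, -0.25 in the gamma-group over the unirradiated metastasis, 0.09 in the carbon-group over the gamma-group metastasis, and -0.32 and -0.20 in the gamma-group and carbon-group metastases over their own primaries. That centring also moved the median of all genes, to -0.10 and -0.11 in the gamma-group and carbon-group metastases against the unirradiated primary.

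With the mean of a gene's probes, 0 were called in the gamma-irradiated primary, 0 between the irradiated primaries and 3 in the carbon-group metastasis over its primary. Of 15604, 15052 and 15288 genes in these comparisons, 270, 112 and 697 were called higher and 165, 23 and 246 lower. The median of the members in the unirradiated metastasis was -0.01. Through the unirradiated primary, 0 were called between the irradiated primaries. At 1.5-fold, 4 were called in the carbon-irradiated primary, beside 8.98% of all genes higher and 4.36% lower. Between the irradiated primaries 3 were called, beside 2.66% and 1.14%. In the unirradiated, gamma-group and carbon-group metastases 9, 6 and 9 were called. Of all genes, 16.5%, 15.6% and 15.1% were higher there and 4.51%, 3.76% and 2.84% lower. In each of the gamma-group and carbon-group over the unirradiated metastasis 3 were called, beside 4.77% and 5.05% of all higher and 5.58% and 6.82% lower. Over their own primaries, 4 and 10 were called in these metastases, beside 12.2% and 10.8% higher and 3.72% and 5.90% lower. With 1 dye orientation left out, the count ranged from 1 to 2 between the irradiated primaries, with medians of -0.08 to 0.03, and from 3 to 6 in the unirradiated metastasis, and the median in the gamma-group metastasis from -0.05 to 0.02.

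No paired analysis was possible because each group is 1 RNA. Signal over background limits Hspb3 and Hspb7, which stood near background in the metastases and the gamma-irradiated primary. In the carbon-irradiated primary, both were well above background on the 2 arrays it shared with the gamma-irradiated one. Hspb3 was dim there and in the unirradiated primary. No value here measures the spread between animals.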
